A study of Arabidopsis thaliana with 12 samples.

Results

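Of the genes of nucleotide supply, chromatin and cell cycle on this array, 3 are the subject here. They are AT2G35390, which encodes a ribose-phosphate pyrophosphokinase, AT1G13370, a histone H3 gene, and FBL17, the gene of an F-box protein. Each of these 3 genes had 1 spot annotated to it alone, out of 692 such spots among 3439 on the array. The genes were chosen on the same difference between genotypes that is described below, so their own values are given as a description and without a test. RNA came from Arabidopsis thaliana wild type (WT, 6 arrays) and from the toc34 mutant (6 arrays), both in the ecotype Columbia 0. Per the labels, toc34 is impaired in the import of proteins across the outer envelope of the chloroplast. The labels give no allele, age, treatment, organ or growth condition, and nothing in them says that the 6 arrays of a genotype stem from different plants, so that p-values reflect array-to-array spread, possibly only technical. None of the 16 marker loci for pollen, dividing cells, meristem, root, seed and flower had a spot of its own, so the organ sampled was not checked, and neither TOC34 nor its paralog TOC33 was measured alone.

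Ribose-phosphate pyrophosphokinases make phosphoribosyl pyrophosphate (PRPP) from ribose 5-phosphate and ATP. PRPP is the sugar-phosphate donor for purine and pyrimidine nucleotides and for histidine, tryptophan and NAD, and in plants the early purine pathway runs in plastids. Histone H3 is a core protein of the nucleosome. Its H3.1 form is laid down mainly during DNA replication and its H3.3 form also outside it. FBL17 is the substrate-binding subunit of an SCF ubiquitin ligase that directs KRP proteins, the inhibitors of cyclin-dependent kinases, to degradation, and in Arabidopsis it is known for its role in the division of the male germ cell and in entry into S phase.

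Each array gave an intensity on a linear scale, in arbitrary units. Summed intensity ran from 1988 to 3553 per array, and 2784 to 2974 spots were above 0. The 3 genes were measured on all 12 arrays, and none of their values was 0. Log2 differences, toc34 minus WT, were taken after quantile normalization, with a standard error (SE) from limma fitted to all 2768 spots that had at least 4 measured values in each genotype. The median log2 difference of all tested spots was -0.05 after this normalization, -0.20 without normalization (the deposited scale) and -0.10 after centring arrays by their medians. Arrays with neighbouring replicate numbers (1 and 2, 3 and 4, 5 and 6) were more alike than others of their genotype, with correlations across spots of 0.957 to 0.98 against 0.92 to 0.949 in WT and of 0.877 to 0.916 against 0.806 to 0.835 in toc34. The 12 arrays may therefore not be independent, and values within these pairs of numbers are given beside the results.

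AT2G35390, the ribose-phosphate pyrophosphokinase gene, was lower in toc34. In WT its deposited intensity ran from 0.699 through a median of 0.745 to 0.996, and in toc34 from 0.111 through 0.171 to 0.218. The lowest WT array lay above the highest toc34 array, so the genotypes did not overlap. The means were 0.811 ± 0.130 and 0.169 ± 0.0384 (SD, n = 6 arrays each), and the normalized log2 difference was -2.12 (SE 0.21), a level 4.36-fold lower in toc34. In RNA from whole material, fewer cells that express a gene and less of its RNA per cell cannot be told apart.

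The spread of AT2G35390 was unequal between genotypes. After normalization its WT values had an SD of 0.054 on the log2 scale, and its toc34 values an SD of 0.49. In WT it stood between the 84.1st and the 85.6th percentile of the measured spots of its array on all 6 arrays. In toc34 its position ran from the 34.8th percentile on replicate 1 to the 61.9th on replicate 6. Brightness of a spot is not an abundance that can be set against that of another gene, so these positions serve only to follow 1 spot from array to array.

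The size of the difference of AT2G35390 varied between the pairs of numbers and also within the first of them. It was -2.16 within numbers 1 and 2, -2.75 within 3 and 4, and -1.54 within 5 and 6. Number by number, the normalized difference was -2.62, -1.79, -2.47, -2.61, -1.80 and -1.46 for numbers 1 to 6, and all 6 were negative. In toc34, replicates 1 and 2 lay 0.79 apart on the log2 scale, where the pair means spanned 0.92. Since the genotypes did not overlap, that common sign was fixed in advance.

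AT1G13370, the histone H3 gene, was also lower in toc34. Its deposited intensity in WT ran from 0.635 through a median of 0.816 to 0.904, and in toc34 from 0.137 through 0.214 to 0.289. Again no toc34 array reached the lowest WT array. The means were 0.788 ± 0.120 and 0.212 ± 0.0574 (SD, n = 6 arrays each), with a normalized log2 difference of -1.79 (SE 0.17), or 3.46-fold lower. Its SE was 0.21 with neighbouring numbers as a random block and 0.27 with them averaged. The normalized SD was 0.17 in WT and 0.33 in toc34.

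For AT1G13370 the pairs of numbers differed in another order than for AT2G35390. Its log2 difference was -2.32 within numbers 1 and 2, -1.76 within 3 and 4 and -1.30 within 5 and 6. The lowest toc34 values of the histone gene were on replicates 1 and 2, whereas AT2G35390 was lowest on replicates 1, 3 and 4. Across the 6 arrays of a genotype the normalized values of AT2G35390 and AT1G13370 correlated at -0.0775 in WT and at 0.276 in toc34, a description over few arrays that share their pairs. In WT the histone gene stood between the 82.5th and 87.3rd percentile of its array, in toc34 between the 41.6th and 63.7th.

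FBL17, the F-box gene, had a higher mean in toc34 and was dim in both genotypes. Its deposited intensity in WT ran from 0.0293 through a median of 0.0566 to 0.0795, and in toc34 from 0.0580 through 0.0805 to 0.138. The genotypes overlapped, with 4 of 6 toc34 arrays above the highest WT array and none below the lowest. After normalization 3 of 6 toc34 arrays lay above the highest WT array. The means were 0.0529 ± 0.0192 and 0.0842 ± 0.0286 (SD, n = 6 arrays each), and the log2 difference was 0.90 (SE 0.30), or 1.87-fold higher. That SE takes the 12 arrays as independent. It was 0.48 with neighbouring numbers as a random block and 0.28 with them averaged.

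The values of FBL17 scattered more than those of the other genes, above all in WT. Its normalized SD was 0.57 in WT and 0.51 in toc34, and replicates 1 and 2, which were otherwise alike, lay 1.38 apart on the log2 scale in WT and 1.20 apart in toc34. The same-numbered difference ran from -0.27 for number 1 to 2.31 for number 2. It was positive for the remaining numbers, at 1.42, 0.12, 0.87 and 0.99 for 3 to 6. Within pairs of numbers the difference was 1.03 (SE 0.68), 0.80 (SE 0.41) and 0.88 (SE 0.16). It was 0.74 without toc34 replicate 2, the brightest array, and 1.07 without WT replicate 1.

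**Figure D1:**
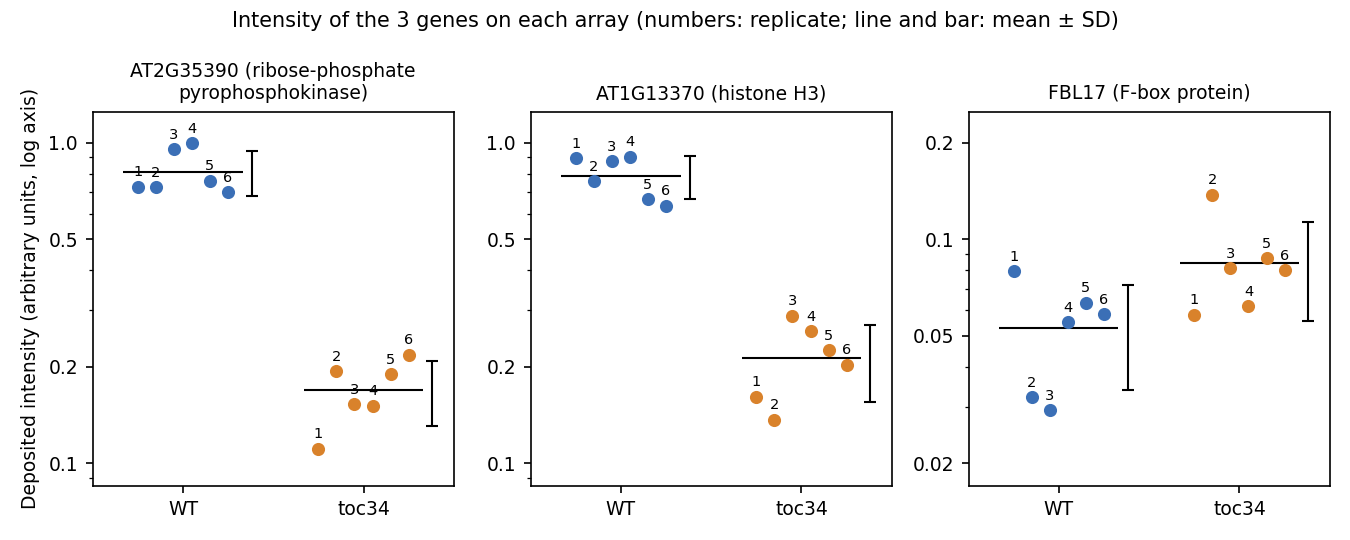
Deposited intensity of AT2G35390, AT1G13370 and FBL17 (arbitrary units, logarithmic axis) on each of the 6 WT and 6 toc34 arrays, numbered by replicate, with a line at the mean and a bar of ± 1 SD. AT2G35390 and AT1G13370 lie lower on every toc34 array than on any WT array, with means of 0.169 against 0.811 and 0.212 against 0.788, while FBL17 overlaps between genotypes.

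**Figure D2:**
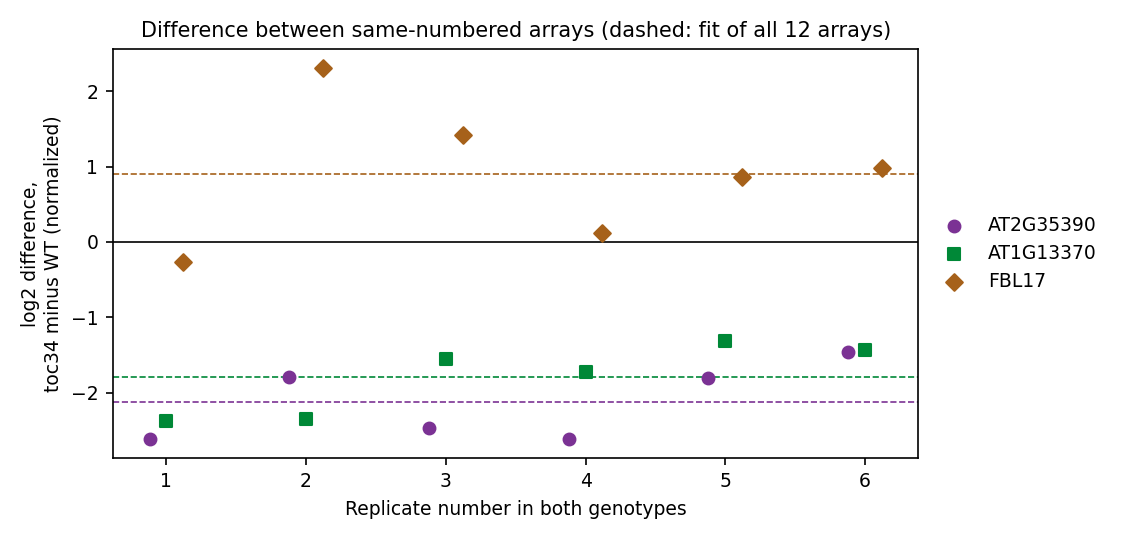
Normalized log2 difference, toc34 minus WT, between arrays with the same replicate number for the 3 genes, with dashed lines at the differences fitted to all 12 arrays (-2.12, -1.79 and 0.90). AT2G35390 and AT1G13370 are negative for all 6 numbers, which follows from their lack of overlap between genotypes, and FBL17 runs from -0.27 to 2.31.

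The 3 genes were placed among all spots by the size of their difference. Of the 2768 tested spots, 36.0% passed the limma adjusted p of 0.05 in either direction, 17.2% higher and 18.9% lower in toc34, and 21.2% had deposited values that did not overlap between genotypes, 14.1% with toc34 lower. Of the 3 genes, 2 did not overlap, both lower, which follows from how they were chosen and is not read against those shares. From the most negative difference upward, AT2G35390 stood 34th of all tested spots and 8th of the 551 tested spots of a single gene, and AT1G13370 stood 76th and 15th. FBL17 stood 413th and 92nd from the most positive difference downward. The directions of the 3 genes were the same on the deposited scale, where their differences were -2.28, -1.93 and 0.70, and after centring by array medians, where they were -2.18, -1.83 and 0.80. For the 2 genes without overlap, the direction on the deposited scale was fixed in advance.

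**Figure D3:**
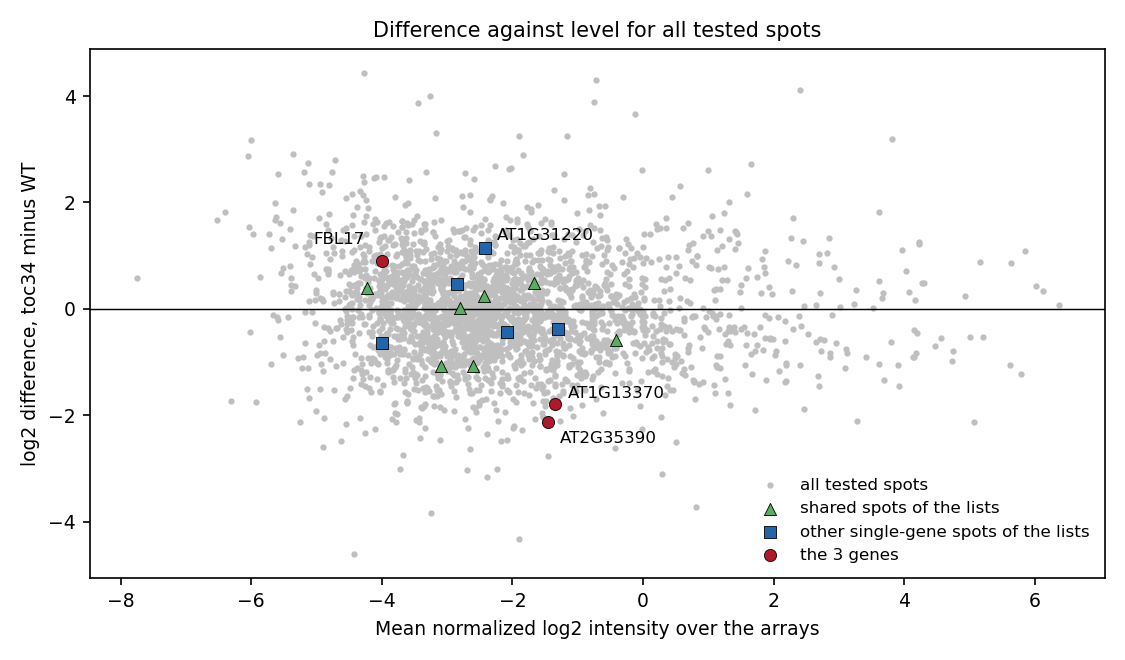
Log2 difference, toc34 minus WT, against mean normalized log2 intensity for all 2768 tested spots (grey), with the 3 genes (red circles), the other single-gene spots of the lists (blue squares) and their shared spots (green triangles). AT2G35390 (-2.12) and AT1G13370 (-1.79) lie near the lower edge of the grey points, and FBL17 (0.90) lies at a lower level inside them.

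Other genes of the same processes were taken from lists and not by their own values, though the lists were chosen with earlier results of these data known. The nucleotide supply list held 117 loci, of which 4 besides AT2G35390 had a spot of their own and 3 of these could be tested. Among these 3 genes, 1 rose, 0 fell and 2 did not pass the test (limma, Benjamini-Hochberg adjusted p over all 2768 spots), with 2 at an unadjusted p under 0.05, against 36.0% of all tested spots called and 37.0% of the single-gene spots. Their median log2 difference was -0.38, and that of all tested spots was -0.05. That median is the value of THIC, a gene of thiamin and not of nucleotide synthesis. THIC was also 1 of the 2 genes at an unadjusted p under 0.05, with AT1G31220. The other 2 tested genes of the list, AT1G31220 and AT2G44530, had differences of opposite sign, 1.14 and -0.43. The list median therefore does not describe nucleotide supply genes as a set.

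The gene that rose was AT1G31220, which encodes phosphoribosylglycinamide formyltransferase, an enzyme of purine synthesis downstream of PRPP. Its deposited intensity in WT ran from 0.105 through a median of 0.133 to 0.157, and in toc34 from 0.188 through 0.229 to 0.572. All 6 toc34 arrays lay above the highest WT array, with replicate 4 brightest. It rose 2.20-fold (log2 difference 1.14, SE 0.20, limma adjusted p = 0.000784), so this purine gene and AT2G35390, which supplies PRPP, had differences of opposite sign. The call of AT1G31220 ended within numbers 1 and 2, where its difference was 0.57 (limma adjusted p = 0.0893), and with neighbouring numbers averaged and the replicate number as a block (limma adjusted p = 0.0813). Within numbers 3 and 4 it was 1.65, and within 5 and 6 it was 1.24.

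AT2G44530, a further ribose-phosphate pyrophosphokinase gene, had a log2 difference of -0.43 (SE 0.20, limma adjusted p = 0.111). Its intensity was 0.288 ± 0.0513 in WT and 0.207 ± 0.0672 in toc34 (SD, n = 6 arrays each), with 3 of 6 toc34 arrays below the lowest WT array. With the replicate number as a block it passed the threshold (limma adjusted p = 0.0428), and so it did without toc34 replicate 1, at -0.57 (limma adjusted p = 0.0209). It did not pass with that block on averaged neighbouring numbers (limma adjusted p = 0.291). Within the 3 pairs of numbers its difference was -0.30, -0.45 and -0.54. AT2G44530 and AT2G35390 thus had negative differences of unequal size, a comparison that was not tested because AT2G35390 was chosen for its own.

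THIC, which entered the list through the word pyrimidine and makes the pyrimidine part of thiamin and not of nucleotides, had a difference of -0.38 (SE 0.16, limma adjusted p = 0.0809). It passed the threshold on the deposited scale at -0.51 (limma adjusted p = 0.0305), centred on array medians at -0.42 (0.0378), with an offset added at -0.35 (0.0382) and without toc34 replicate 2 at -0.49 (0.0207). It did not pass with neighbouring numbers averaged (limma adjusted p = 0.313) or as a random block (0.242). Within the pairs of numbers the difference of THIC was -0.16, -0.60 and -0.45.

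A further 3 spots were each shared by a pair of nucleotide supply genes, and none of them passed the test. A spot of the aminoimidazole carboxylase genes of purine synthesis had a difference of -1.08 (SE 0.44, limma adjusted p = 0.0764), with 4 of 6 toc34 arrays below the lowest WT array. It passed without toc34 replicate 2 (limma adjusted p = 0.0232) and without toc34 replicate 4 (0.0471), and it was -0.75 without toc34 replicate 6. With neighbouring numbers averaged it did not pass (limma adjusted p = 0.203). Within numbers 1 and 2 its difference was -0.25 (limma adjusted p = 0.683), within 3 and 4 it was -0.86, and within 5 and 6 it passed at -2.05 (0.0479). Adenylosuccinate lyase, which acts later in that pathway, was represented by a pair of spots annotated to the same genes, with differences of -1.07 (SE 0.47, limma adjusted p = 0.0942) and 0.24 (SE 0.18, limma adjusted p = 0.313). The first of these passed with the replicate number as a block (limma adjusted p = 0.0391) and without toc34 replicate 3 (0.0495), but not with that block on averaged neighbouring numbers (0.125). Within the 3 pairs of numbers it was -2.0, -0.63 and -0.64, and the second spot was 0.13, 0.60 and 0.052. The list of PRPP supply and use, with 19 loci of the pentose phosphate pathway and of histidine, tryptophan and NAD synthesis, had 0 spots.

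Other histone genes were measured on few spots. The list of histones and their chaperones held 106 loci, and the 2 genes with a spot of their own, AT1G09200 and AT5G65360, are both annotated as histone H3.1. Neither passed the limma test, where 37.0% of the single-gene spots did, and neither had an unadjusted p under 0.05. AT1G09200 had a difference of 0.46 (SE 0.37, limma adjusted p = 0.361), with a WT intensity from 0.0507 through a median of 0.162 to 0.186 and a toc34 intensity from 0.0993 through 0.153 to 0.214. In WT its values were low on replicates 3 and 4 alone, and without WT replicate 3 the difference was 0.21. Within the 3 pairs of numbers it was -0.18, 1.14 and 0.44.

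AT5G65360, the other H3.1 gene, had a difference of -0.63 (SE 0.30, limma adjusted p = 0.121). It was dim, from 0.0717 to 0.106 in WT and from 0.0197 to 0.0921 in toc34, with 4 of 6 toc34 arrays below the lowest WT array. It passed the threshold without toc34 replicate 2, at -0.84 (limma adjusted p = 0.0245). With neighbouring numbers averaged it did not pass (limma adjusted p = 0.294). Within the pairs of numbers its difference was 0.024, -0.80 and -1.09.

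A further 4 spots were shared by histone H3 genes alone, and 1 of them fell, 0 rose and 3 did not pass the test, against 18.9% of all tested spots that fell and 17.2% that rose. The spot of 3 H3.3 genes fell, at a log2 difference of -0.58 (SE 0.20, limma adjusted p = 0.0337). Its deposited intensity was 0.989 ± 0.220 in WT and 0.590 ± 0.142 in toc34 (SD, n = 6 arrays each), with 5 of 6 toc34 arrays below the lowest WT array. Its call ended with neighbouring numbers averaged (limma adjusted p = 0.176) or as a random block (0.155). It also ended without WT replicate 1 (0.0516), 3 (0.0675), 4 (0.0550) or 6 (0.0765) and without toc34 replicate 1 (0.0547), 2 (0.0571) or 4 (0.0619). Within the 3 pairs of numbers the difference of this H3.3 spot was -0.57, -0.92 and -0.27.

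The other 3 H3 spots did not pass the test. A spot of 2 H3.1 genes had a difference of 0.49 (SE 0.23, limma adjusted p = 0.116), which passed without toc34 replicate 1 (0.0234). With neighbouring numbers averaged it did not pass (limma adjusted p = 0.361). Within the 3 pairs of numbers it was -0.080, 0.56 and 0.96, and it passed in the last of them (limma adjusted p = 0.0369). A spot of 2 H3.3 genes had a difference of 0.014 (SE 0.39), a sign that turned without normalization (-0.11) and after centring by array medians (-0.0085). Within the pairs of numbers it was -0.75, 0.26 and 0.55. A spot shared by the centromeric H3 and a male-gamete H3 had a difference of 0.40 (SE 0.30, limma adjusted p = 0.325), which rests on 5 toc34 arrays because replicate 2 was listed at 0. That difference was 0.15 on the deposited scale, 0.055 with the offset, 0.23 without toc34 replicate 3 and 0.65 without toc34 replicate 6 (limma adjusted p = 0.0503). It was 0.82 within numbers 3 and 4 and 0.032 within 5 and 6. H3 coding sequences are much alike, and how far a spot read transcripts of H3 genes other than the annotated one is not known from the sources used here, so the spot of AT1G13370 too may not have measured that gene alone.

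**Figure D4:**
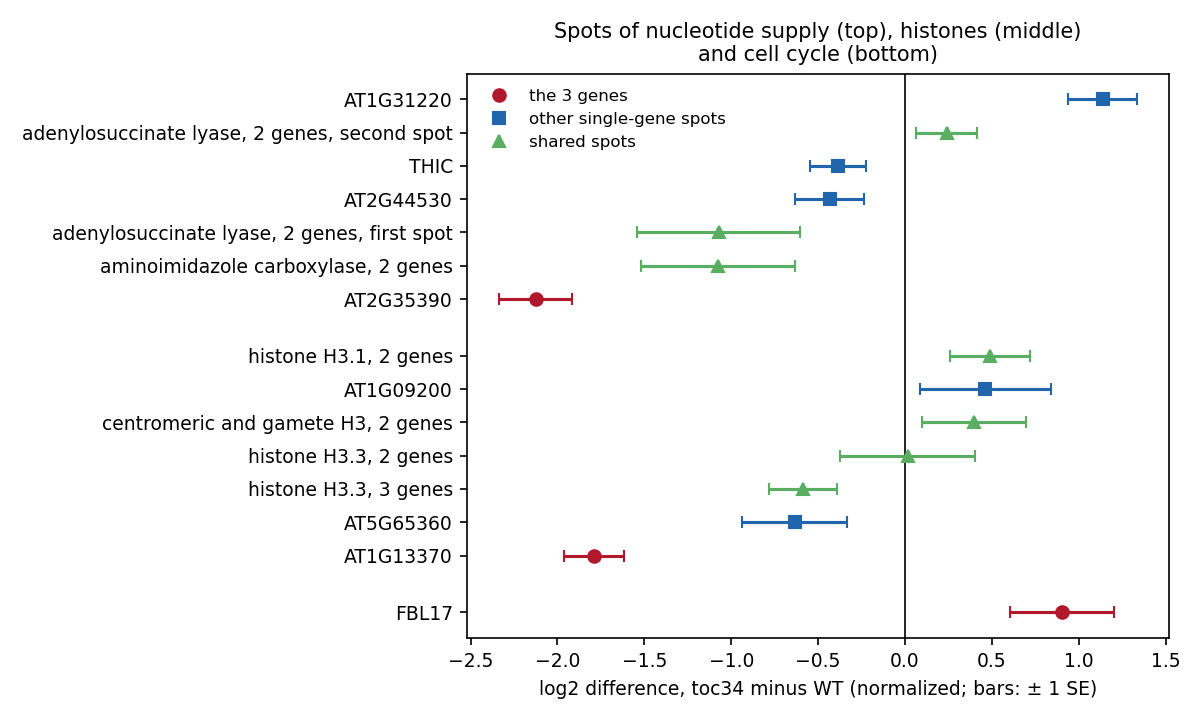
Log2 difference, toc34 minus WT, with bars of ± 1 SE, for the tested spots of nucleotide supply, histones and cell cycle. AT2G35390 (-2.12) and AT1G13370 (-1.79) lie farthest to the left of their groups, AT1G31220 (1.14) lies farthest to the right, and the other histone H3 spots run from -0.63 to 0.49.

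FBL17 was the only locus with a spot, of its own or shared, among the 131 of the cell cycle and DNA replication list. The KRP inhibitors on which it acts, the cyclins, the cyclin-dependent kinases, the E2F factors and the MCM and PCNA replication genes were thus not analysed here. FBL17 correlated with AT2G35390 at 0.455 in WT and 0.754 in toc34, and with AT1G13370 at 0.531 in WT and -0.266 in toc34, over 6 arrays in each genotype that share their neighbouring numbers.

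The genes most like each of the 3 in pattern were named by the Pearson correlation of normalized values over the 12 arrays, among 477 other single-gene spots measured on all arrays. Where genotypes lie apart, this measure mostly ranks genes by that gap, so the correlation within each genotype is given beside it, and all are descriptions. For AT2G35390 the first was AT4G32060 (0.977 over all arrays, 0.243 within WT and 0.850 within toc34). With values in the same order, AT5G53920 (0.977, 0.225 and 0.805) and AT3G26630 (0.968, 0.223 and 0.779) followed. Next came AT1G64430 (0.963, 0.0136 and 0.519) and RAP74 (0.96, -0.193 and 0.654), a subunit of the general transcription factor TFIIF. The log2 differences of these 5 genes ran from -1.80 to -1.04.

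For AT1G13370 the first was AT2G32470 (0.964 over all arrays, 0.731 within WT and 0.814 within toc34). With values in the same order, AT1G72890 (0.957, 0.705 and 0.115) and AT1G64430 (0.954, -0.468 and 0.404) followed. Next came AT4G32060 (0.953, -0.604 and 0.475) and AT1G67820 (0.952, 0.712 and 0.749). AT4G32060 and AT1G64430 stood among the 5 genes nearest to both AT2G35390 and AT1G13370, yet within WT they correlated with AT1G13370 at -0.604 and -0.468. For FBL17 the first was AT4G05030 (0.838 over all arrays, 0.165 within WT and 0.990 within toc34). With values in the same order, AT3G50180 (0.787, 0.64 and 0.473) and AT4G39690 (0.760, 0.462 and 0.532) followed. Next came CCL (0.753, -0.127 and 0.904) and AT4G34310 (0.744, 0.721 and 0.281). The log2 differences of these 5 genes ran from 0.82 to 2.50.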

How the data were processed

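The values analysed are spot intensities on 1 array per sample, in the table the authors deposited. Their unit is not stated with it; a linear intensity was judged from the values, which run from 0 to a ceiling just under 100, held by 20 values in toc34 and 1 in WT and by none of the 3 genes. Background subtraction, scaling, labelling, scanner and software are not given in the sources used here. Genotype and replicate number come from the sample titles.

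Values of 0 were set to missing, log2 intensities were quantile-normalized because array medians differed by 0.501 (limit 0.2), and limma 3.58.1 (lmFit, then eBayes; R 4.3.3) gave the two-sided tests, with Benjamini-Hochberg adjustment over 2768 tested spots at 0.05 (671 were not tested). The procedure was tested on simulated data, with an outcome that is not given here and is not used as support. The number of arrays limits the precision. Spots were named through the platform's annotation and a RefSeq gene table of TAIR10.1, which matched 690 of 692 single-gene spots. No array build is named, so no coordinates are given, and no sequences are used here.

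The 3 genes, the lists and the alternatives were chosen with earlier results of these data known. Lists combined written loci with words in the gene table. Named were the 3 genes, all tested single-gene spots of the lists, spots whose several genes all stood on 1 list, and the 5 spots most correlated with each gene. After removal of genotype means, WT and toc34 arrays with 1 number correlated at 0.134 to 0.274, each above the limit of 0.1 for treating numbers as pairs. This correlation was not computed for arrays of unlike number, so it cannot tell pairing by number from likeness shared by neighbouring numbers. The labels themselves state no pairing, and the main fit was planned without it. Its SEs and limma adjusted p-values therefore do not treat same-numbered arrays as pairs, although that limit was passed. The replicate block, a random block of neighbouring numbers (statmod 1.5.0, correlation 0.535), averaging, other scalings, an offset of 0.0216, filters, array weights, missing ceiling values and leaving out each array were alternatives. The fits within pairs of numbers, and averaging with the block, were chosen after the data were seen.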

Additional observations from a re-analysis of the deposited data

Results flagged for a closer look

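Dixon's ratio, the gap of the most extreme array to its nearest neighbour over the whole range, was computed for 35 sets of 6 arrays of 1 genotype (the named spots and 3 array summaries). Of these, 1 passed the critical value, where chance alone gives about 1.75 if the 6 arrays of a set are independent. Arrays with neighbouring numbers were more alike, which can lower the ratio. The set that passed was the first spot of the adenylosuccinate lyase genes in toc34, with a ratio of 0.668. Normalized log2 values there were -5.96 on replicate 2 and ran from -3.67 to -2.53 on the other 5 arrays. Its deposited intensity was 0.0144, below the offset of 0.0216, and without that array the difference was -0.61 in place of -1.07. None of the values of AT2G35390, AT1G13370 and FBL17 stood apart by this measure, where the highest ratio among them was 0.547 for AT1G13370 in WT.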

How the results depend on the processing

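The differences of AT2G35390, AT1G13370 and FBL17 kept their sign under every alternative that gave a value. For AT2G35390 and AT1G13370, which did not overlap between genotypes, that sign was largely fixed in advance and is no support. All 3 genes were chosen on this difference. Leaving out 1 array gave -2.26 to -2.03, -1.89 to -1.69 and 0.74 to 1.07. They moved by more than the pooled SD of both genotypes (normalized log2 values) only within pairs of numbers, for AT2G35390 (-2.75 in 3 and 4, -1.54 in 5 and 6) and AT1G13370 (-2.32 in 1 and 2, -1.30 in 5 and 6). FBL17 was too dim to pass the filter at the 25th percentile of level and has no value there.

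The count of 997 called spots was 625 with the random block, 381 with neighbouring numbers averaged, 203 with averaging and the replicate block together, and 562 within numbers 5 and 6, where fewer arrays are left. It was 863 to 996 with 1 array left out and 1010 with the replicate block, 914 of them among the 997. Increases made up 47.6% of calls, 36.2% on the deposited scale. Of the 5 tested genes of the lists, 1 was called, but 2 on the deposited scale, with arrays centred, with the offset and with the replicate block, 1 to 3 with an array left out, and 0 by limma within numbers 1 and 2 and with averaging and the block, where 1 had an unadjusted p under 0.05 in each. The replicate block added the calls of AT2G44530 and the first adenylosuccinate lyase spot and changed no other call of the list spots. Both were lost again on averaged numbers (limma adjusted p = 0.291 and 0.125). The sign of the spot of 2 H3.3 genes turned on the deposited scale (-0.11), centred (-0.0085), within numbers 1 and 2 (-0.75) and with single arrays left out (-0.18 to 0.30). Within numbers 1 and 2 the sign also turned for AT1G09200 (-0.18), AT5G65360 (0.024) and the spot of 2 H3.1 genes (-0.080). The causes were not tested. How far a dim spot such as FBL17 lies above background cannot be read from the deposited values.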

Other observations

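UPP, the uracil phosphoribosyltransferase that uses PRPP to salvage uracil in plastids, was measured on 2 of 6 WT arrays and 2 of 6 toc34 arrays and was listed at 0 on the others. Its values reached at most 0.00295 in WT and 0.0544 in toc34, so it was not tested.

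Genes that followed the 3 genes from array to array within the genotypes were ranked by the correlation of deviations from genotype means over the 12 arrays, again as a description. For AT1G13370 the first were AT4G24930 (0.895), AT1G15410 (0.89) and AT4G30150 (0.852), with correlations of 0.882, 0.735 and 0.633 within WT and 0.900, 0.933 and 0.908 within toc34. Of these, AT4G30150 fell in toc34 (log2 difference -1.55, limma adjusted p = 0.00426), while AT4G24930 (-0.48, limma adjusted p = 0.165) and AT1G15410 (0.61, limma adjusted p = 0.0847) did not pass the test. For AT2G35390 the first were AT3G59980 (0.873) and AT4G38670 (0.854), and for the latter the correlation was -0.200 within WT and 0.957 within toc34, with a log2 SD of AT2G35390 of 0.054 in WT and 0.49 in toc34. For FBL17 the first was AT5G40140 (0.683).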
